A study of Mus musculus with 14 samples.

Results

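The intercalated disc is the end-to-end contact of heart muscle cells, and the 9 genes described here encode its main junction proteins: Dsg2, Dsc2, Jup, Pkp2 and Dsp of the desmosome, Cdh2 and Ctnna3 of the adherens junction, and Gja1 and Tjp1 of the gap junction. They were picked by symbol as known proteins of the disc, and each symbol matched 1 of the 54532 gene identifiers in the count files. Bulk RNA from mouse hearts had been made into 14 sequencing libraries by QuantSeq, which reads a tag near the 3′ end of each polyadenylated transcript, so a value is a count of tags and is not scaled to transcript length. YG8-800 and KIKO-700 mice are models of Friedreich ataxia, an inherited disease with cardiomyopathy. YG8-800 mice lack both mouse copies of the disease gene and carry a human transgene of it with an expanded repeat, and KIKO-700 mice carry an expanded repeat knocked into 1 mouse allele while the other allele is deleted. The groups were 4 libraries labelled WT, 4 labelled YG8-800, 3 from KIKO-700 females and 3 from KIKO-700 males. The labels give the C57BL/6 strain background and an age of 180 days for all of them, whereas the study's text gives an older age for both lines. Wild-type controls of the KIKO-700 experiment were not analysed here, so its comparison was of the sexes.

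Desmosomes bind neighbouring cardiomyocytes through the cadherins desmoglein and desmocollin, whose tails hold plakoglobin and plakophilin, which in turn hold desmoplakin and the desmin filaments. Adherens junctions bind cells through N-cadherin, with catenins as the link to actin. Gap junction channels of connexin 43 carry the electrical impulse from cell to cell, and mutations in desmosomal genes are a known cause of arrhythmogenic cardiomyopathy in humans.

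Promoter sequence is shown for the members whose values the results turn on and for which a RefSeq window is shown, so that Gja1, the member that varied most between hearts, can be read beside Dsp, Jup and Tjp1. RefSeq windows on GRCm38.p6 were found for 5 of the 9 members, these and Ctnna3. Each line gives the 250 bases before an annotated start, read 5′ to 3′ on the strand of the gene. Capitals mark matches on either strand to the GC box GGGCGG or to the AP-1 motif TGANTCA. The windows lie at chr10:56377050-56377299 on the plus strand for Gja1, chr13:38151044-38151293 on the plus strand for Dsp, chr11:100397791-100398040 on the minus strand for Jup and chr7:65371245-65371494 on the minus strand for Tjp1. The Tjp1 window lies inside the span of the gene, before an internal annotated start, and not before the outermost start at chr7:65527781.
Gja1: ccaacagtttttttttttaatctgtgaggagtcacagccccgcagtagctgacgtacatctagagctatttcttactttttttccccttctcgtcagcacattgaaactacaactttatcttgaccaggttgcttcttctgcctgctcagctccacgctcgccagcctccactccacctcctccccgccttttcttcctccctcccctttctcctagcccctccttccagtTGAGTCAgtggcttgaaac
Dsp: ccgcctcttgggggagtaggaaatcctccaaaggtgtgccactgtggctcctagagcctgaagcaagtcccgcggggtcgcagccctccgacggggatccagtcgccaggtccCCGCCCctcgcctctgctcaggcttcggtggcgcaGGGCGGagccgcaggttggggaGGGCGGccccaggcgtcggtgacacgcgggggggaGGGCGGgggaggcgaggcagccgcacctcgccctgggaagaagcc
Jup: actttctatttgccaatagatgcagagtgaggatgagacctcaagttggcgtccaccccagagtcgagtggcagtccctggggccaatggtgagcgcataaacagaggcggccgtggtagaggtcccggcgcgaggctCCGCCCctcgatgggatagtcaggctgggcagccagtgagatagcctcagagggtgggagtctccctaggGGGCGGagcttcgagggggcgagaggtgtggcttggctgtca
Tjp1: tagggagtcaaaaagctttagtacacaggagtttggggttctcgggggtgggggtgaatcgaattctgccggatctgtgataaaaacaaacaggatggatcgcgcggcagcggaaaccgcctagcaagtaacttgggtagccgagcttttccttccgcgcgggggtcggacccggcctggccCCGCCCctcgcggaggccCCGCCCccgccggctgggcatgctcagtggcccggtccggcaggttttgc

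The Gja1 window held 1 AP-1 match and 0 GC boxes at 50% GC. The Dsp window held 4 GC boxes at 72.4% GC, and the Jup and Tjp1 windows held 2 each, at 62.0% and 63.2% GC. Of 32851 RefSeq windows of the same organism, searched over the same 250 bases before the start, 32.7% held a GC box and 6.75% an AP-1 match. These matches describe the letters of the windows, and no binding was measured.

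The libraries held 5226233 to 11650840 counts, of which 28.9% to 44.6% fell on genes of mitochondrial DNA. Cardiomyocyte markers summed to between 23937 and 44877 CPM (counts scaled to a common library size by the trimmed mean of M values, TMM, over all 14 libraries) and were high in every library. Xist, the RNA of the inactive X chromosome, lay at 38.0 to 52.6 CPM in the libraries labelled WT 1, 2 and 4 and YG8-800 1 and 3, and at 0 to 0.327 CPM in the other 3 of that experiment, although the study describes that experiment as one on males. The 6 KIKO-700 libraries matched their labelled sex. Whether the labels WT and YG8-800 stand for those genotypes was not settled here, so every direction between these groups is one between labels. Library KIKO-700 male 1 stood apart from the other males: leaving it out raised the number of genes that passed an adjusted p of 0.05 between the sexes from 8 to 864. In bulk hearts fewer cells of a type and less RNA per cell cannot be told apart.

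In GENCODE M21 on GRCm38 the desmosomal genes are Dsp at chr13:38151294-38198577, Pkp2 at chr16:16213318-16272712, Jup at chr11:100368958-100397763, Dsg2 at chr18:20558074-20604521 and Dsc2 at chr18:20030633-20059554. The others are Cdh2 at chr18:16588877-16809246, Ctnna3 at chr10:63430098-65003667, Gja1 at chr10:56377330-56402513 and Tjp1 at chr7:65296165-65527781. All 9 junction genes were detected in every library. Their counts ran from 13 for Ctnna3 to 4004 for Dsp. Over the 14 libraries Gja1 spanned the widest range of the 9, from 8.64 to 129 CPM, a 14.9-fold range on 72 to 1623 counts. Pkp2, Jup and Ctnna3 spanned the narrowest, 2.39-fold, 2.52-fold and 2.64-fold, and the remaining 5 lay between 3.32-fold for Dsg2 and 4.60-fold for Dsc2.

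**Figure D1:**
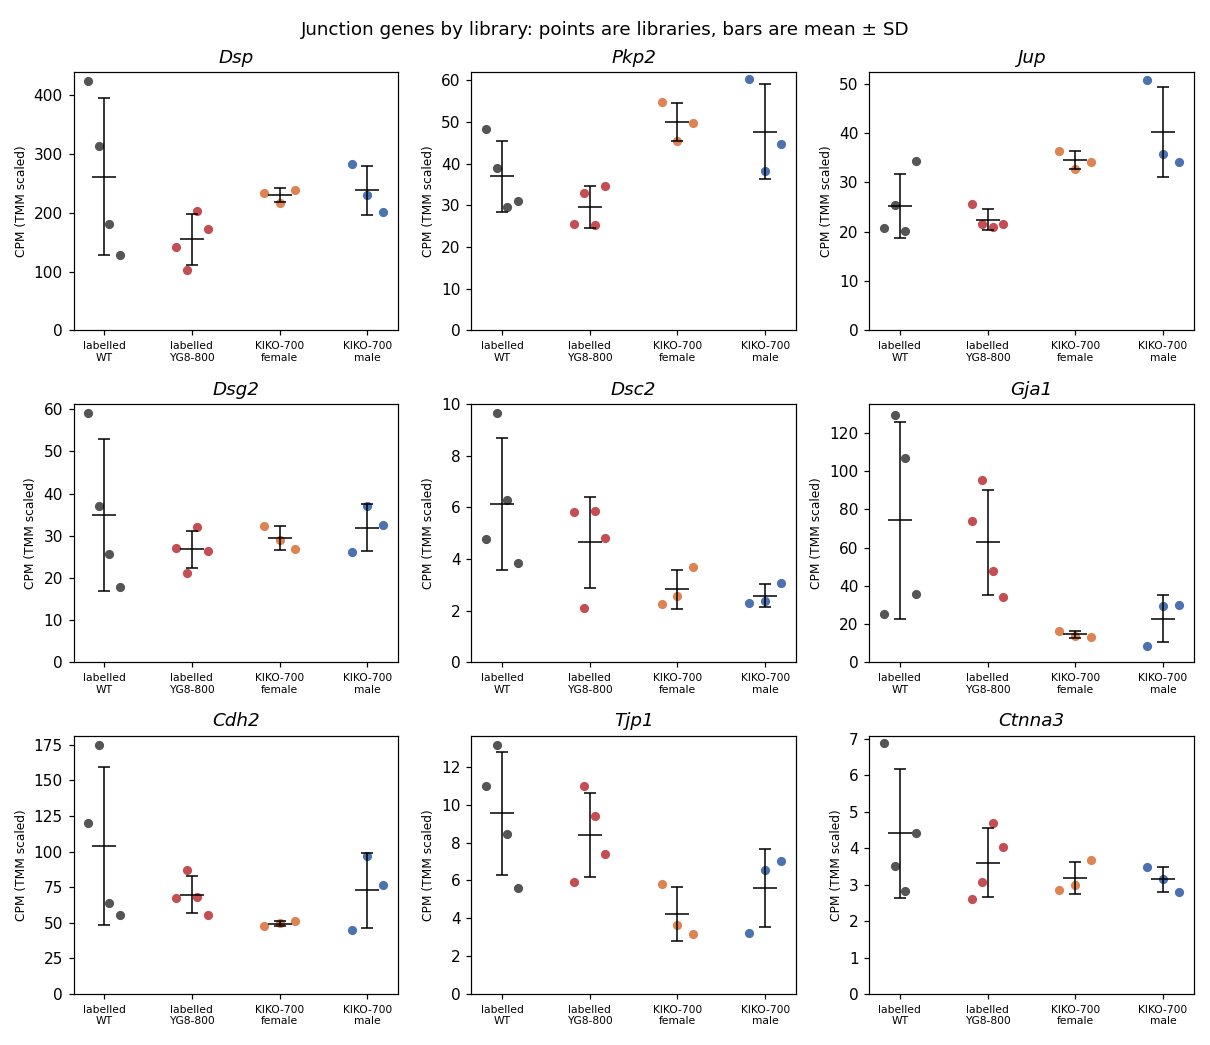
Level of each junction gene in CPM (TMM scaled, linear axes from 0), 1 point per library, in 4 label groups (4 WT, 4 YG8-800, 3 KIKO-700 female and 3 KIKO-700 male libraries), with bars for the mean ± SD. The WT and YG8-800 points overlap for all 9 genes, and Gja1 reaches 129 CPM in a WT library against 8.64 CPM in a KIKO-700 male.

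The first question was whether the junction genes differ between hearts labelled YG8-800 and WT. No junction gene passed the test: 0 of the 9 reached an adjusted p of 0.05 in edgeR's quasi-likelihood test, as did 0 of all 11875 genes tested (0%), and 0 of the 9 reached an unadjusted p of 0.05, against 718 genes or 6.05% of all tested. DESeq2 called 7 genes and limma-voom 0 at an adjusted p of 0.05, with no junction gene among them. All 9 fitted log2 fold changes lay below 0, with a median of -0.28, where 50.5% of all tested genes lay below 0, 49.5% above, and their median was -0.01. The libraries of both groups overlapped for each of the 9, and 3.88% of all tested genes did not overlap. With limma-voom and limma-trend Gja1 lay just above 0, so the shared direction was that of 8 of the 9 there. In edgeR fits it was that of 7 of the 9 without WT 1 or without WT 2. Without WT 3 or without WT 4 it was that of 8.

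Dsp encodes desmoplakin, the protein that ties the desmosome to desmin, and had the largest fitted difference of the 9. Its level was 423, 313, 181 and 128 CPM in the libraries labelled WT 1 to 4 and 141, 103, 203 and 172 CPM in those labelled YG8-800 1 to 4. WT 1 and WT 2 were above every YG8-800 library, while WT 3 and WT 4 lay within the YG8-800 range. The means were 261 ± 133 (SD, n = 4) and 155 ± 42.8 (SD, n = 4) CPM. The log2 fold change was -0.70 (SE 0.35, 95% interval -1.44 to 0.03), with an edgeR adjusted p of 0.839 and an exact two-sided permutation p of 0.229, where 0.0286 is the smallest possible. Without WT 1 the log2 fold change was -0.40 and without WT 4 it was -0.92, the latter with an unadjusted edgeR p of 0.0113 and an adjusted p of 0.204. With the Xist level as a covariate it was -0.57, with an unadjusted p of 0.124.

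For each desmosomal gene, Dsp included (SD 0.77), the fitted difference was smaller than the SD of log2 CPM among the WT libraries. Dsg2, a desmosomal cadherin, lay at 59.2, 37.1, 25.6 and 17.8 CPM in WT 1 to 4 and between 21.2 and 32.1 CPM in the YG8-800 libraries, with a log2 fold change of -0.34 (SE 0.31). WT 1 and WT 2 were above every YG8-800 library, and without WT 1 the log2 fold change was 0.01. Dsc2, the partner cadherin, had few tags, 2.09 to 9.63 CPM over these 8 libraries, and a log2 fold change of -0.37 (SE 0.38). It was -0.05 without WT 2 and -0.13 without YG8-800 2. Pkp2, an armadillo protein of the desmosomal plaque, had 37.0 ± 8.56 (SD, n = 4) CPM in WT and 29.6 ± 4.94 (SD, n = 4) CPM in YG8-800 libraries, with a log2 fold change of -0.28 (95% interval -0.80 to 0.23), which was -0.16 without WT 1. Jup encodes plakoglobin, which sits in both desmosomes and adherens junctions, and had the smallest difference, -0.14 (95% interval -0.68 to 0.40). Its YG8-800 libraries lay at 25.7, 21.6, 20.98 and 21.6 CPM, and 5.74% of 13023 genes had a smaller spread there.

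Cdh2 encodes N-cadherin, the adherens junction cadherin of cardiomyocytes. Its level was 120, 175, 64.0 and 55.6 CPM in WT 1 to 4 and 67.7, 87.1, 68.2 and 55.8 CPM in YG8-800 1 to 4. As for Dsp, WT 1 and WT 2 lay above all YG8-800 libraries and WT 3 and WT 4 did not. The log2 fold change was -0.53 (SE 0.33, 95% interval -1.23 to 0.17) with an edgeR adjusted p of 0.849, and it was -0.16 without WT 2. Ctnna3 encodes the heart form of alpha-catenin, which also binds plakophilin 2, and lay at 2.82 to 6.87 CPM in WT and 2.60 to 4.69 CPM in YG8-800 libraries, with a log2 fold change of -0.27 (SE 0.35).

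Gja1 encodes connexin 43, the channel protein of ventricular gap junctions. Its level was 25.2, 129, 107 and 35.5 CPM in WT 1 to 4 and 73.6, 95.3, 47.8 and 33.9 CPM in YG8-800 1 to 4. The WT libraries fell on both sides of the YG8-800 libraries, WT 2 and WT 3 above and WT 1 below, a 5.14-fold range within 1 label group. The standard deviation of its log2 CPM in WT was 1.16, larger than that of 92.4% of 13023 genes. Its log2 fold change was -0.22 with a 95% interval from -1.39 to 0.95. Tjp1 encodes ZO-1, a scaffold that binds connexin 43 at the plaque edge, and had 9.54 ± 3.25 (SD, n = 4) and 8.42 ± 2.22 (SD, n = 4) CPM, a log2 fold change of -0.16 (SE 0.30).

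**Figure D2:**
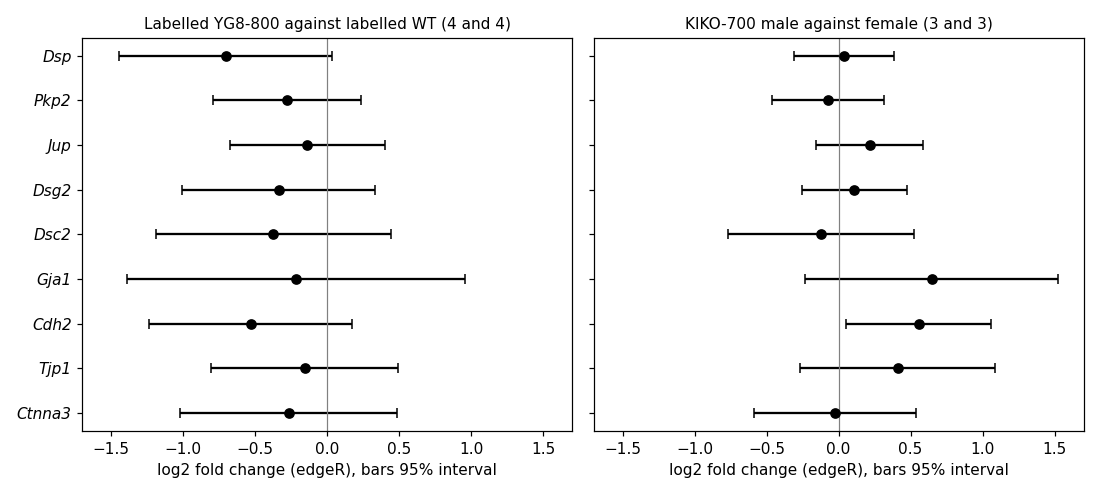
Fitted log2 fold change of each junction gene (edgeR, x axis in log2 units) with its 95% interval, for libraries labelled YG8-800 against WT on the left and KIKO-700 males against females on the right. All 9 points lie left of 0 on the left panel and each interval there includes 0, while on the right Cdh2 alone has an interval that starts above 0, at 0.05.

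The second question was whether the junction genes differ between the sexes in KIKO-700 hearts. Here 0 of the 9 reached an adjusted p of 0.05 by edgeR, against 8 of 11801 genes tested (0.0678%), and 1 of the 9, Cdh2, reached an unadjusted p of 0.05, against 844 genes or 7.15%. Of the 9, 6 log2 fold changes lay above 0 and 3 below, with a median of 0.11 beside 0.01 for all genes, and 50.9% of all genes lay above 0 and 49.1% below. DESeq2 called 18 genes and limma-voom 7, with no junction gene among them. No junction gene separated the sexes without overlap, and 12.6% of all tested genes did. With 3 libraries against 3 the exact permutation test cannot go below 0.1.

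Cdh2 lay at 47.6, 49.6 and 51.1 CPM in females 1 to 3 and at 44.7, 97.3 and 76.8 CPM in males 1 to 3. The females were close together, 2 males were above them and male 1 was below. The means were 49.4 ± 1.73 (SD, n = 3) and 72.9 ± 26.5 (SD, n = 3) CPM, and the log2 fold change was 0.55 (SE 0.23) with an unadjusted edgeR p of 0.0328, an adjusted p of 0.656 and an exact permutation p of 0.4. Gja1 had the same arrangement, 16.4, 13.8 and 13.3 CPM in females and 8.64, 29.5 and 30.1 CPM in males. Male 1 was the lowest of all 14 libraries for Gja1, and the other 2 males were above every female. Its log2 fold change was 0.65 (SE 0.39) with an adjusted p of 0.793 by edgeR. Tjp1 lay at 5.83, 3.66 and 3.18 CPM in females and 3.24, 6.56 and 7.01 CPM in males, a log2 fold change of 0.41 (SE 0.31).

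Gja1 and Cdh2 turned on the same library. Without KIKO-700 male 1, in edgeR fits of 3 females and 2 males, Gja1 was 1.03 higher in males on the log2 scale (SE 0.14, adjusted p 0.000107), Cdh2 was 0.81 higher (SE 0.13, adjusted p 0.000419) and Tjp1 was 0.68 higher (SE 0.24, unadjusted p 0.00899, adjusted p 0.0874). Tjp1 moved as far without female 1, to 0.71 (SE 0.35, unadjusted p 0.0707), and ran from 0.20 to 0.71 over the 6 libraries left out in turn. In the fit without male 1 864 of 12245 genes passed an adjusted p of 0.05, so male 1 bore on many genes besides Gja1 and Cdh2. The unadjusted call of Cdh2 did not hold when any single female, male 2 or male 3 was left out, where its log2 fold change ran from 0.30 to 0.58. Gja1 was at 0.44 without male 2 and 0.38 without male 3, with adjusted p of 0.999 and 0.905 by edgeR. What set male 1 apart was not tested.

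**Figure D3:**
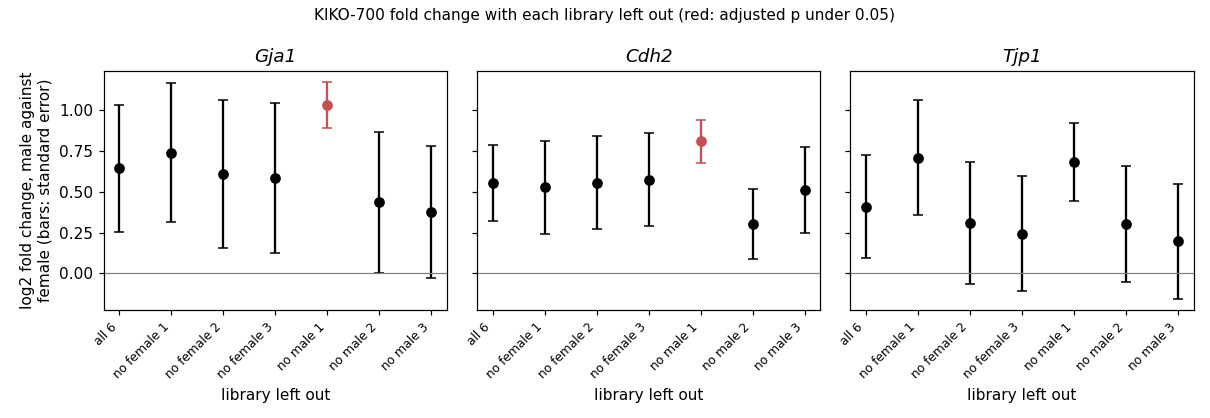
Log2 fold change of Gja1, Cdh2 and Tjp1 between KIKO-700 males and females (y axis, with standard error bars) with all 6 libraries and with each of them left out in turn (x axis), red where the edgeR adjusted p was under 0.05. The only red points are Gja1 at 1.03 and Cdh2 at 0.81, both without male 1.

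The fitted log2 fold changes of the desmosomal genes between the sexes ran from -0.12 for Dsc2 to 0.21 for Jup. Their 95% intervals were -0.77 to 0.53 for Dsc2 and -0.16 to 0.59 for Jup. Dsp had 230.0 ± 11.6 (SD, n = 3) CPM in females and 238 ± 41.7 (SD, n = 3) CPM in males, a log2 fold change of 0.04 with a 95% interval from -0.31 to 0.39. Dsg2 had 29.4 ± 2.75 (SD, n = 3) and 31.9 ± 5.51 (SD, n = 3) CPM, and Pkp2 49.99 ± 4.62 (SD, n = 3) and 47.7 ± 11.4 (SD, n = 3) CPM, with 95% intervals of -0.26 to 0.47 and -0.46 to 0.31. Jup stood at 50.8 CPM in male 1 and at 32.8 to 36.4 CPM in the other 5, so male 1 was high for Jup where it was low for Gja1. Its log2 fold change was 0.21 (SE 0.17), and 0.02 without male 1. Dsc2 and Ctnna3 had log2 fold changes of -0.12 (SE 0.30) and -0.02 (SE 0.26) at 2.26 to 3.68 CPM.

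The 4 label groups were set side by side in 1 fit of 14 libraries and 13023 genes, in which experiment and genotype cannot be told apart. The groups were not matched by sex either, as Xist was high in WT 1, 2 and 4 and in YG8-800 1 and 3. Blood markers summed to 1303 to 5741 CPM in the WT and YG8-800 libraries and to 13477 to 19420 CPM in the KIKO-700 libraries, and mesothelial and epithelial markers to 13.6 to 46.0 and to 2.64 to 6.07 CPM. Endothelial markers lay at 283 to 415 CPM in the first experiment and 532 to 729 CPM in the second, and atrial cardiomyocyte markers at 143 to 1520 CPM and 1725 to 2547 CPM. None of these 4 sums overlapped between the experiments, and their part in the differences of Gja1, Cdh2, Tjp1, Dsc2, Pkp2 and Jup was not tested. The comparisons of these groups share libraries and are not independent of each other. They also share 1 estimate of the spread per gene, although the groups differed in spread. The median SD of log2 CPM over genes was 0.52 in WT, 0.37 in YG8-800, 0.20 in KIKO-700 female and 0.29 in KIKO-700 male libraries. In this fit 0 of the 9 was called between YG8-800 and WT libraries, against 0.00768% of all genes, with 3.84% of genes not overlapping, and 0 between the KIKO-700 sexes, against 0%, with 12.5% not overlapping.

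The means of Gja1, Tjp1, Dsc2 and Ctnna3 were lowest in the KIKO-700 groups, and that of Cdh2 in the KIKO-700 females. The mean of Gja1 was 74.2 ± 51.7 (SD, n = 4) CPM in WT, 62.7 ± 27.3 (SD, n = 4) in YG8-800, 22.8 ± 12.2 (SD, n = 3) in KIKO-700 male and 14.5 ± 1.66 (SD, n = 3) in KIKO-700 female libraries. Between KIKO-700 female and WT libraries 3 of the 9 were called, against 15% of all tested genes: Gja1 fell by 2.35 (adjusted p 0.0277), Tjp1 fell by 1.19 (adjusted p 0.0304) and Cdh2 fell by 1.07 (adjusted p 0.0422) on the log2 scale by edgeR. Gja1 and Cdh2 did not overlap between these groups, nor did Dsc2, with a log2 fold change of -1.13 and an adjusted p of 0.0521, where 27.6% of all genes did not overlap. Between KIKO-700 male and WT libraries 1 of the 9 was called, Dsc2 at -1.25 (adjusted p 0.0442), against 10.3% of all genes. With library sizes alone as the scale, Gja1 remained called between KIKO-700 females and WT at an adjusted p of 0.0431, while Cdh2 (0.0870), Tjp1 (0.0611) and, between males and WT, Dsc2 (0.0586) did not pass. With limma-voom Cdh2 (0.0698) and Dsc2 (0.0663) did not pass either, and Jup passed between males and WT (adjusted p 0.0494).

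Pkp2 and Jup ran the other way, with their highest means in KIKO-700 hearts. Pkp2 lay at 25.5, 33.0, 25.2 and 34.7 CPM in YG8-800 1 to 4, at 54.8, 45.5 and 49.7 CPM in KIKO-700 females and at 60.3, 38.2 and 44.6 CPM in KIKO-700 males. The YG8-800 libraries were all below the KIKO-700 ones, and the WT libraries, at 29.7 to 48.3 CPM, overlapped both. By edgeR Pkp2 was 0.76 higher in KIKO-700 females than in YG8-800 libraries on the log2 scale (adjusted p 0.0283) and 0.69 higher in males (adjusted p 0.0435). Jup was 0.84 higher in KIKO-700 males than in YG8-800 libraries (adjusted p 0.0158) and 0.62 higher in females (adjusted p 0.0590). With Gja1 at -2.11 (adjusted p 0.0329), 2 of the 9 were called between KIKO-700 female and YG8-800 libraries. Of all tested genes 18.7% were called and 40.5% did not overlap in that pair. Dsp, Pkp2, Jup, Gja1, Cdh2 and Tjp1 were among those without overlap. Between KIKO-700 male and YG8-800 libraries 2 of the 9 were called, where 17.5% of all genes were called and 35% did not overlap. Pkp2, Jup and Gja1 did not overlap there. With library size alone Gja1 did not pass between KIKO-700 females and YG8-800 libraries (adjusted p 0.0565) and Jup did (0.0364). Pkp2 passed in both pairs, females first, with library size alone (edgeR adjusted p 0.0340 and 0.0479) and with limma-voom (adjusted p 0.0269 and 0.0452). No other scaling or tool was tried for the comparisons between the experiments. Dsp, Dsg2 and Ctnna3 were not called in any pair of groups.

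**Figure D4:**
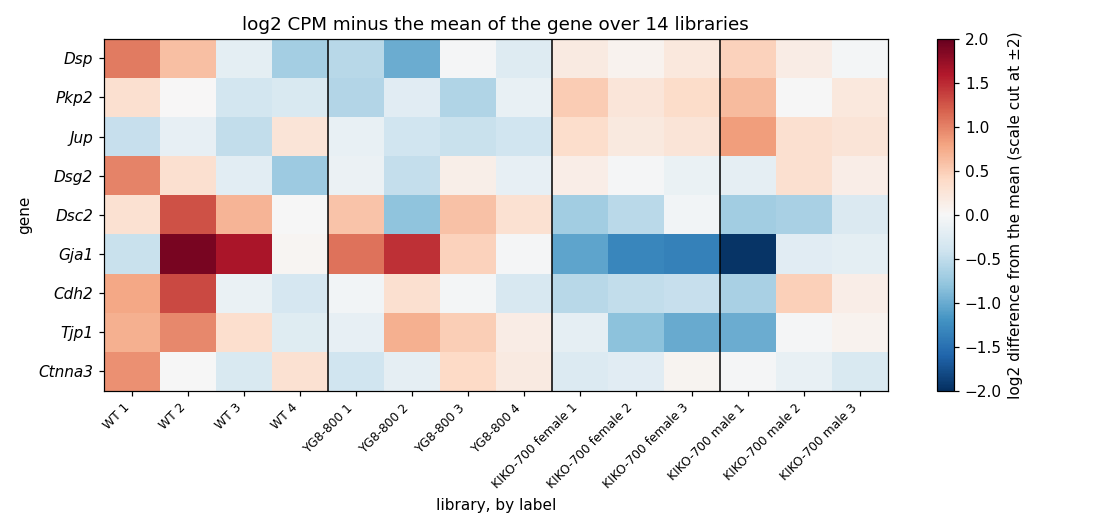
Log2 CPM of each junction gene (rows) in each of 14 libraries (columns, by label) minus the mean of that gene over the libraries, red above and blue below, with lines between the 4 label groups and the colour scale cut at ±2. Gja1 is blue in the KIKO-700 columns and changes colour within WT, and Pkp2 and Jup are red in the KIKO-700 columns except for Pkp2 in male 2, which is near 0.

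Over the 14 libraries, after each label group was centred on its mean, 0 of 36 pairs of junction genes passed an adjusted p of 0.05 by permutation, for Pearson's r or Spearman's rho. The smallest p belonged to Gja1 and Ctnna3, with r = -0.78 (permutation p 0.00795, adjusted p 0.157, n = 14), rho = -0.85 (permutation p 0.00287, adjusted p 0.103), and r = -0.71 without the 2 libraries farthest from the median. Within the experiments r was -0.84 and -0.62. It was -0.47 (adjusted p 0.545) with library size alone as the scale and -0.41 (adjusted p 0.663) with the cardiomyocyte marker mean subtracted. Cdh2 and Tjp1 followed with r = 0.76 (permutation p 0.00872, adjusted p 0.157) and rho = 0.67, with 0.83 and 0.69 within the experiments.

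The genes whose profiles were nearest, after centring within each experiment, were found by the root mean square difference of log2 CPM among 13023 genes over 14 libraries. For Gja1 these were Khdc4 (0.21) and Klhl7 (0.22), where Gja1 itself deviated by 0.74. For Jup they were Rcan1 (0.10) and Lasp1 (0.14), for Pkp2 Slc25a46 (0.12) and Ube2d2a (0.12), for Dsg2 Gsk3b (0.11) and Rock2 (0.12), and for Dsp Rai2 (0.19) and Dyrk1a (0.19). For Cdh2 they were Impad1 (0.18) and Zfhx3 (0.19), for Tjp1 Nek1 (0.19) and Parp9 (0.20), and for Ctnna3 Phldb1 (0.13) and Pttg1ip (0.15). For Dsc2 they were Ugt1a7c (0.23) and Ugt1a6a (0.23), which overlap in the genome, so that their tags may not be separable.

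Other junction genes were taken from lists of desmosome, adherens, gap junction, filament and assembly genes, and none passed an adjusted p of 0.05 in either comparison. Among 20 tested of 21 other adherens junction genes, 3 were higher and 1 lower in YG8-800 than in WT libraries at an unadjusted p of 0.05, where 3.04% of all genes were higher and 3.01% lower. Rapgef1, a guanine nucleotide exchange factor for Rap1, had 71.9 ± 12.5 (SD, n = 4) CPM in WT and 36.2 ± 10.2 (SD, n = 4) CPM in YG8-800 libraries, with a log2 fold change of -0.95 (edgeR adjusted p 0.786). Fermt2, the integrin activator kindlin 2, was at 0.70, Nrap, an actin-binding protein of the disc, at 0.65, and Myzap, a disc protein that binds ZO-1, at 0.52 on the log2 scale. Of 13 tested of 14 intermediate filament and linker genes 1, the filament protein nestin (Nes), was at 1.04, from 4.55 ± 1.58 (SD, n = 4) to 9.03 ± 1.52 (SD, n = 4) CPM with an edgeR adjusted p of 0.786. None of the 3 tested of 11 other desmosome genes, 15 tested of 18 gap junction and channel partners or 20 tested of 22 assembly genes reached an unadjusted p of 0.05. The medians of these lists ran from -0.32 to 0.03 beside -0.01 for all genes.

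Between the sexes of KIKO-700 hearts 4 of the other junction genes reached an unadjusted p of 0.05, all higher in males. Of all genes 7.15% reached it, 3.39% higher and 3.76% lower. The 4 were 1 of 20 tested adherens junction genes, 1 of 10 filament and linker genes and 2 of 19 assembly genes. None of 3 tested other desmosome genes or 14 gap junction and channel partners reached it. The medians of these lists ran from -0.06, for the assembly genes, to 0.17 beside 0.01 for all genes. Xirp1, an actin-binding repeat protein of the disc, had 11.8 ± 0.295 (SD, n = 3) CPM in females and 17.6 ± 3.23 (SD, n = 3) CPM in males, with a log2 fold change of 0.57 (edgeR adjusted p 0.538). Flnc, the muscle filamin, was at 0.50, Wwtr1, the Hippo pathway coactivator TAZ, at 0.56 and Ptp4a3, a phosphatase, at 0.47 on the log2 scale.

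Some markers of other cell types differed in the same comparisons. Of 4 tested of 5 adipocyte markers, 3 were lower in YG8-800 libraries and 4 lower in KIKO-700 males at an unadjusted p of 0.05, among them Cfd, the complement factor adipsin, which in males passed the adjusted test at -1.88 (edgeR adjusted p 0.00621). Their summed level was 2.39 to 107 CPM in WT, 6.89 to 15.1 CPM in YG8-800, 28.4 to 39.2 CPM in KIKO-700 female and 7.35 to 11.7 CPM in KIKO-700 male libraries. Of 8 fibroblast markers 1, Tcf21 (-1.25), was lower in YG8-800 libraries at an unadjusted p of 0.05, with a list median of -0.31. So was 1 of 7 macrophage markers, Csf1r (-0.72), with a list median of -0.44. No atrial cardiomyocyte or blood marker reached that p there. The atrial list had a median of -0.72, with 7 markers below 0 and 1 above, and all 5 blood markers lay below 0, with a median of -0.51. Of all genes 3.04% were higher and 3.01% lower there at that p. In KIKO-700 males 1 of 8 endothelial markers, Cdh5, was higher at that p (0.44), with a list median of 0.18. Lum (-0.48), 1 of 8 fibroblast markers, was lower, with a list median of -0.03. Adgre1 (-0.74) and C1qc (-0.42), 2 of 7 macrophage markers, were lower, with a list median of -0.11. Of all genes 3.39% were higher and 3.76% lower there at that p. None of 10 cardiomyocyte markers reached it in either comparison. Set against the mean of the cardiomyocyte markers in each library, no junction gene reached a p of 0.05 between YG8-800 and WT libraries by the exact permutation test, and between the KIKO-700 sexes that test could not go below 0.1. Dsp was then at -0.73 (p 0.114) and Ctnna3 at -0.31 (p 0.0571) for YG8-800 against WT, and Gja1 at 0.45 and Cdh2 at 0.49 (both p 0.4) between the sexes.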

How the data were processed

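The files held raw counts per gene that the authors deposited, 1 table for each of 14 QuantSeq 3′ libraries. The study's methods name Rsubread, featureCounts with strand and limma on GRCm38, and STAR 2.5.0a and HTSeq 0.6.1 are given in the submitters' notes on processing; which made these files was not settled. Of 54532 identifiers, 54495 (99.9%) matched GENCODE M21 symbols. Replicates were taken as labelled, and p-values measure the spread between these libraries.

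Counts were tested with edgeR 4.0.16 (robust quasi-likelihood, filterByExpr, TMM) in R 4.3.3, with Benjamini-Hochberg adjustment over all genes tested. CPM levels use 1 TMM scale over 14 libraries, and log2 CPM a prior count of 2. Intervals are 95% and come from the fit. The fit code was tested on simulated data. Alternatives were RLE, upper-quartile and library-size scaling, other filters, DESeq2 1.42.0, limma 3.58.1 (voom and trend), a replicate block, members set against cardiomyocyte markers, abundant genes left out, all 14 libraries, Xist as a covariate and each library left out. Named genes are all 9 members, up to 4 genes of each other list with the smallest unadjusted p under 0.05, and the 2 nearest profiles of each member. The members and lists were chosen with earlier results of these data known. All replicate pairs differed beyond sampling noise. The gene targeted in the mouse lines is not reported here.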

Additional observations from a re-analysis of the deposited data

Results flagged for a closer look

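Among the 18 sets of 4 libraries examined for the 9 junction genes, 1 held a library far from the rest. Jup in YG8-800 1 stood at 25.7 CPM, above the other 3 YG8-800 libraries at 20.98 to 21.6 CPM, and its gap to the nearest was 0.872 of the group's range where the critical value is 0.829. Chance alone marks about 1 in 20 such groups.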

How the results depend on the processing

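No junction gene was called between YG8-800 and WT libraries under any alternative tried. The number at an unadjusted p of 0.05 was 0 in the reported fit, 1 (Dsp) with upper-quartile factors, with library size alone, with DESeq2, with mitochondrial DNA and 4 abundant Gm genes left out and with all 14 libraries in 1 fit, 2 (Dsp and Cdh2) with no filter on low counts, and 0 to 2 with 1 library left out. Scaled by library size, all genes together had a median of -0.21 on the log2 scale, against -0.01. The number of all genes called rose from 0 to 7 with DESeq2, 107 with no filter and 145 without WT 4. Gja1 turned above 0 with limma-voom (0.011) and limma-trend (0.0028). With 1 library left out the log2 fold change ran from -0.51 to 0.18 for Gja1, -0.24 to 0.074 for Jup, -0.54 to 0.0064 for Dsg2, -0.33 to 0.040 for Tjp1, -0.42 to 0.0024 for Ctnna3, -0.53 to -0.052 for Dsc2, -0.37 to -0.16 for Pkp2, -0.92 to -0.40 for Dsp and -0.73 to -0.16 for Cdh2. With library size alone the other adherens genes at an unadjusted p of 0.05 numbered 2 in place of 4 and the gap junction partners 1 in place of 0.

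Between KIKO-700 sexes the number of junction genes at an unadjusted p of 0.05 was 2 with no filter, 0 with limma-voom, limma-trend and all 14 libraries, and 0 to 3 with 1 library left out, and the number called was 0 to 2, the highest without male 1. With 1 library left out the log2 fold change ran from -0.099 to 0.15 for Dsp, -0.27 to 0.066 for Pkp2, -0.0034 to 0.23 for Dsg2, -0.29 to 0.10 for Dsc2 and -0.10 to 0.090 for Ctnna3, and reached 1.03 for Gja1 and 0.81 for Cdh2 without male 1. The number of all genes called was 18 with DESeq2, 105 with no filter, 2 with at least 10 counts in every library, 0 with all 14 libraries and 864 without male 1, against 8.

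In the fit of 4 groups, library size alone left 1 of the 9 called between KIKO-700 females and WT in place of 3, and 0 between males and WT in place of 1.

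The deviations of libraries that share a number had r from -0.23 to 0.25. These r were not tested and come from few libraries, so they do not settle whether the numbers pair libraries. With the replicate block 0 junction genes were called in either comparison, and 867 and 629 genes reached an unadjusted p of 0.05 in place of 718 and 844. Depth limits Dsc2, Ctnna3 and Tjp1 most, which rest on as few as 17, 13 and 25 tags in a library.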
